A study of Mus musculus with 12 samples.

Results

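The muscle acetylcholine receptor and the genes that gather it at the synapse were followed in C2C12, a mouse myoblast line, after knockdown of the zinc-finger transcription factor Zfp143 (ZNF143). The set holds 10 genes, taken from the deposited table by gene symbol out of 78275 gene IDs. They are the receptor subunit genes Chrna1, Chrnb1, Chrnd, Chrng and Chrne and the clustering genes Agrn, Lrp4, Musk, Dok7 and Rapsn. Each symbol matched 1 Ensembl ID, 9 of the 10 had enough counts to be tested, and Chrne had not.

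The receptor is a pentamer of alpha, beta and delta subunits joined by gamma in fetal muscle or by epsilon in adult muscle, and the change of gamma for epsilon accompanies innervation. Agrin binds the co-receptor LRP4, which activates the kinase MuSK, and DOK7 binds MuSK from inside the cell and raises its activity. Rapsyn, the product of Rapsn, anchors the receptors in clusters under the nerve ending. Cultured myotubes without nerve are known for making the fetal receptor along their surface.

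Polyadenylated RNA was sequenced from 12 libraries in 4 groups of 3. In the siZfp143 induced group, cells carried an siRNA against Zfp143 and spent 5 days in medium with 1% horse serum, which starts differentiation into myotubes. The siControl induced group had a non-targeting siRNA and the same 5 days in 1% horse serum. The siZfp143 uninduced group had the Zfp143 siRNA and was harvested 24 hours after transfection, in growth medium with 10% fetal bovine serum. The siControl uninduced group had the non-targeting siRNA and was harvested at the same 24 hours in the same growth medium. All 4 groups come from the same transfected cell line, with no nerve and no genetic deletion. Induction, serum and the time since transfection go together in this design, so their effects cannot be told apart. No label says that replicates came from separate cultures, so p-values reflect the spread among the libraries at hand, which may be technical.

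Totals per library ran between 13520906 and 19068323 estimated counts. A pair of libraries stood apart. Uninduced siControl 3 had 6.02% mitochondrial counts, against 2.63% and 2.90% in the other libraries of its group. Induced siZfp143 1 was the shallowest and had 1.95% mitochondrial counts, against 3.44% and 3.47% in its group. Zfp143 itself had 14.7, 16.8 and 19.7 CPM (the count as a share of the library, scaled for depth and composition) in induced siZfp143 cells, against 19.7, 19.3 and 19.3 CPM in induced siControl cells. In uninduced cells it had 12.2, 11.9 and 10.1 CPM with siZfp143, against 23.2, 27.8 and 39.8 CPM with siControl. The knockdown was therefore visible at the RNA level in uninduced cells, where Zfp143 stood at 37.7% of siControl (edgeR, adjusted p = 6.12e-05). In induced cells the ranges of the groups overlapped and the difference missed the threshold (log2 fold change -0.18, 95% interval -0.57 to 0.20, edgeR adjusted p = 0.646).

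The upstream promoter sequences of 4 subunit genes are shown because 3 of these genes, Chrna1, Chrnb1 and Chrng, were lower together in induced knockdown cells, while Chrne is the adult subunit that was almost without counts. They are the 250 bases before the RefSeq start site, 5′ to 3′ on the strand of the gene, from RefSeq on GRCm38.p6. Capitals mark E-boxes, the letters CANNTG that MyoD and myogenin bind, and in Chrne also the N-box CCGGAA, an ETS-factor motif known from synaptic genes.
Chrna1 chr2:73580339-73580588 (minus strand): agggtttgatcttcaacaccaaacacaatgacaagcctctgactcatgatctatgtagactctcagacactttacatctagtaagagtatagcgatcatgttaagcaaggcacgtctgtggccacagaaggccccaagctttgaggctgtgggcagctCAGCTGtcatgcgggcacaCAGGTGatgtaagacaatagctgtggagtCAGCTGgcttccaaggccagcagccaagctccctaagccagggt
Chrnb1 chr11:69795938-69796187 (minus strand): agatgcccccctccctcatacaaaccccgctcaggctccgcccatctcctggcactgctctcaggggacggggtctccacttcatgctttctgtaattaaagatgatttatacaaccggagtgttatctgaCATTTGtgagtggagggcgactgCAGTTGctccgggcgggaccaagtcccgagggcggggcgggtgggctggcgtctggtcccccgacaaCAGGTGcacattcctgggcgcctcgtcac
Chrng chr1:87205561-87205810 (plus strand): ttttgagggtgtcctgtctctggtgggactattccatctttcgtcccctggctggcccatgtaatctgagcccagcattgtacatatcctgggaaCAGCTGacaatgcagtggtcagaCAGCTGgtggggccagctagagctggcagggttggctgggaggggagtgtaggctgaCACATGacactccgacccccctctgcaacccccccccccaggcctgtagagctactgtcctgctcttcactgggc
Chrne chr11:70619195-70619444 (minus strand): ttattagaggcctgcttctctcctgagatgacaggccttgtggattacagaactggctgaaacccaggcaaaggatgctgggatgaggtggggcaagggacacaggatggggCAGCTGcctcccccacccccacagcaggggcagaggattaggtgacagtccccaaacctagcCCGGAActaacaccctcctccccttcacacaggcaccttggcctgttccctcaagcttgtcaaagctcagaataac

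The Chrna1 promoter held 3 E-boxes whose first bases lie at -92, -73 and -44 from the start, and those at -92 and -44 read CAGCTG. Chrnb1 also held 3, at -119, -96 and -29, with no CAGCTG among them. Chrng held 3, at -155, -132 and -75, and the first pair read CAGCTG. Chrne held 1 E-box, CAGCTG at -138, and was the only one of the members with a promoter entry to hold CCGGAA, at -76. Promoter entries matched 7 of the 10 members: these 4, Musk, Dok7 and Agrn. Musk had 3 E-boxes, at -177, -100 and -68, the last of them CAGCTG. Dok7 and Agrn had 2 start sites each. Dok7 held 1 E-box, at -149, before 1 of its sites and none before the other. Agrn likewise held 1, at -92, before 1 site and none before the other. Neither gene held CAGCTG. On both strands of 32851 promoter windows of the same length, 66.2% held CANNTG, 13% held CAGCTG and 12% held CCGGAA, so CANNTG alone sets these windows little apart. CAGCTG is a form of CANNTG, so those 2 counts overlap. A match describes these letters in this window and no more.

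In control cells, the tested part of the apparatus was higher after induction. All 9 tested members were higher in induced than in uninduced siControl cells, with a median log2 fold change of 3.01, while 33.2% of all 15030 tested genes were higher, 30.9% were lower and 64.1% differed in either direction, and the median over all genes was 0.03. Chrng and Dok7 passed the filter on low counts through the induced libraries, so their difference with induction was built into their being tested.

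Chrna1, the alpha subunit that carries most of the acetylcholine binding site, had 497, 594 and 495 CPM in induced siControl cells, against 152, 173 and 204 CPM in uninduced siControl cells. It was the most abundant subunit transcript in every group, and induced values lay above all uninduced ones (log2 fold change 1.58 ± 0.128 SE, edgeR adjusted p = 5.52e-08). Chrnb1, the beta subunit, had 62.5, 65.3 and 60.7 CPM in induced siControl cells, against 6.68, 9.0 and 7.69 CPM in uninduced siControl cells. Its libraries were tightly grouped within each state and well apart between states (log2 fold change 3.01 ± 0.132, adjusted p = 6.73e-11 in edgeR). Chrnd, the delta subunit, had 105, 137 and 114 CPM in induced siControl cells, against 41.4, 36.9 and 29.4 CPM in uninduced siControl cells. The ranges did not overlap, and the log2 fold change was 1.72 ± 0.149 (edgeR adjusted p = 1.24e-07).

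Chrng, the fetal gamma subunit, had 160.2, 188 and 148 CPM in induced siControl cells, against 0.380, 0.274 and 0.460 CPM in uninduced siControl cells. Uninduced values rest on 5 to 7 counts per library, and the fitted log2 fold change was 8.79 ± 0.385 (edgeR adjusted p = 1.54e-12). Among the clustering genes, Agrn, the secreted organiser that muscle makes as well as nerve, had 433, 431 and 424 CPM in induced siControl cells, against 64.8, 54.9 and 34.2 CPM in uninduced siControl cells. Lrp4, the agrin receptor, had 144, 175 and 168 CPM in induced siControl cells, against 21.3, 21.0 and 11.6 CPM in uninduced siControl cells. In both genes uninduced siControl 3 was the lowest library of its group, and both log2 fold changes were close to 3, at 3.06 ± 0.194 for Agrn and 3.17 ± 0.196 for Lrp4.

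Musk, the receptor kinase, had 36.3, 47.5 and 39.3 CPM in induced siControl cells, against 11.2, 11.9 and 8.54 CPM in uninduced siControl cells. Dok7, its activator, had 14.2, 14.0 and 12.2 CPM in induced siControl cells, against 0.272, 0.494 and 0.591 CPM in uninduced siControl cells. Like Chrng, Dok7 was thus close to silent before induction (log2 fold change 4.89 ± 0.427). Rapsn, the anchoring protein gene, had 83.7, 79.8 and 66.4 CPM in induced siControl cells, against 32.1, 29.9 and 31.0 CPM in uninduced siControl cells. It was already well expressed in myoblasts and showed the smallest change with induction of the 9 tested members (log2 fold change 1.30 ± 0.134), with Musk at 1.96 ± 0.183. The values without both libraries that stood apart kept all 9 calls and ran between 1.30 for Rapsn and 8.95 for Chrng.

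**Figure D1:**
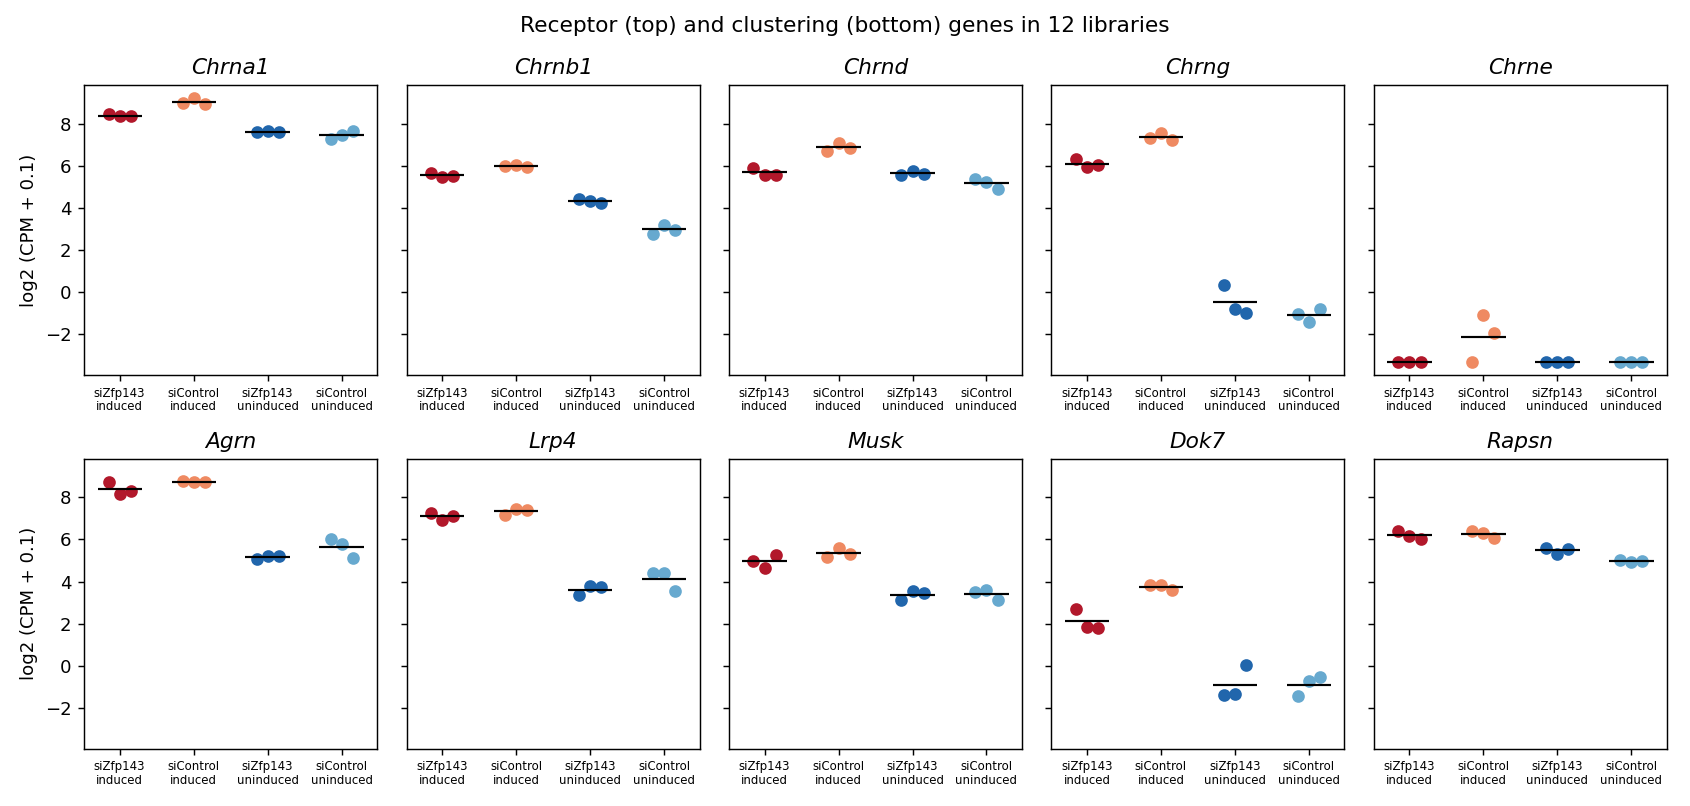
Level of each of the 10 genes in the 12 libraries, as log2 of CPM + 0.1, with points for libraries and bars for group means. Induced libraries stand above uninduced ones for the 9 tested genes in siControl cells. Chrnd in siZfp143 cells overlaps between induced and uninduced libraries on this scale. Chrne lies at the bottom of the scale outside 2 induced siControl libraries.

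In knockdown cells the receptor genes gained less with induction. With siZfp143, 8 of 9 tested members were higher in induced than in uninduced cells, against 36% of all tested genes that were higher, 30.1% that were lower and 66.1% that differed in either direction, with a median log2 fold change of 1.61 against 0.10 over all genes. The exception was Chrnd, which had 59.9, 47.2 and 47.3 CPM in induced siZfp143 cells, against 47.4, 53.1 and 48.8 CPM in uninduced siZfp143 cells. Its ranges overlapped, and the log2 fold change was 0.05, with a 95% interval of -0.27 to 0.37 (edgeR adjusted p = 0.793), an interval that excludes the 1.72 measured in siControl cells. Without induced siZfp143 1 the Chrnd value was -0.07, so its sign rests on that library. The result belongs to the CPM scale. As TPM, the level per transcript length used below for the subunits, Chrnd ran from 29.1 to 40.2 in induced siZfp143 cells. In uninduced siZfp143 cells it ran from 19.4 to 22.9 TPM, so on that scale it was higher with induction.

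The other members of the siZfp143 arm rose by unequal amounts. On the log2 scale Chrna1 was higher by 0.77 ± 0.128, Chrnb1 by 1.23 ± 0.126 and Chrng by 6.67 ± 0.307. Agrn was higher by 3.26 ± 0.196 and Lrp4 by 3.49 ± 0.199, Musk by 1.61 ± 0.184, Rapsn by 0.73 ± 0.133 and Dok7 by 3.12 ± 0.421. The values of the genes close to silent before induction move with single libraries: Dok7 was at 3.88 without uninduced siZfp143 3, and Chrng at 7.29 without uninduced siZfp143 1. Every tested subunit gene rose less with siZfp143 than with siControl, and that difference is tested as the interaction of siRNA and induction. For Agrn and Lrp4 the gain with siZfp143 was 0.19 and 0.32 above that with siControl, with 95% intervals of -0.39 to 0.78 and -0.28 to 0.92.

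In induced cells, 5 of the 9 tested members were lower with siZfp143 than with siControl and none was higher. Over all genes 5.77% were lower, 3.73% were higher and 9.49% differed in either direction, and the members' median log2 fold change was -0.43 against -0.03 over all genes. All 4 tested subunit genes were among the 5, together with Dok7. The 7 myotube markers on the list used here moved the same way: all 7 were lower, with a median of -1.55, and their summed level ran from 2622 to 3264 CPM with siZfp143 against 7560 to 9525 CPM with siControl. Their part in the receptor result was not tested. In a bulk sample, fewer myotubes and less RNA per myotube cannot be told apart.

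Chrna1 had 347, 325 and 325 CPM in induced siZfp143 cells, against the 497, 594 and 495 CPM in induced siControl cells. All 3 knockdown libraries lay under all 3 controls, at 62.8% of the control level (log2 fold change -0.67 ± 0.127, edgeR adjusted p = 0.00273). Chrnd, at the 59.9, 47.2 and 47.3 CPM given above in induced siZfp143 cells, against 105, 137 and 114 CPM in induced siControl cells, stood at 43.4% (log2 fold change -1.20 ± 0.148, edgeR adjusted p = 7.04e-05). In CPM its knockdown libraries were close to the level of uninduced siZfp143 cells. Chrng had 80.6, 60.4 and 66.1 CPM in induced siZfp143 cells, against 160.2, 188 and 148 CPM in induced siControl cells. The highest knockdown library was well below the lowest control, and the group stood at 41.7% (log2 fold change -1.26 ± 0.171, edgeR adjusted p = 0.000172).

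Chrnb1 had 50.5, 44.3 and 45.6 CPM in induced siZfp143 cells, against 62.5, 65.3 and 60.7 CPM in induced siControl cells. The ranges did not overlap, yet this was the smallest of the 5 decreases, at 74.4% of control (log2 fold change -0.43 ± 0.123, edgeR adjusted p = 0.0402). Its call was lost in 8 of the 12 settings that left out 1 library (edgeR adjusted p between 0.0573 and 0.16). These left out induced siZfp143 2 or 3, any induced siControl library or any uninduced siZfp143 library, which enter the shared estimate of the spread, and the log2 fold change lay between -0.45 and -0.39. The call was also lost with library size alone as scaling (adjusted p = 0.188), with no filter on low counts (adjusted p = 0.13) and in a fit of the induced groups alone (adjusted p = 0.0502). Dok7 had 6.38, 3.51 and 3.35 CPM in induced siZfp143 cells, against 14.2, 14.0 and 12.2 CPM in induced siControl cells. Induced siZfp143 1 was the highest of the knockdown libraries and still below every control, and Dok7 stood at 32.6% (log2 fold change -1.62 ± 0.292, edgeR adjusted p = 0.00197), the lowest share of control among the members.

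The clustering genes upstream and downstream of DOK7 did not pass the test in induced cells. Agrn had 424, 283 and 315 CPM in induced siZfp143 cells, against 433, 431 and 424 CPM in induced siControl cells. Induced siZfp143 1 reached the control level while the other 2 knockdown libraries lay below it (log2 fold change -0.33, 95% interval -0.74 to 0.08, edgeR adjusted p = 0.372). Without both libraries that stood apart, Agrn was called lower, at -0.52 (edgeR adjusted p = 0.000326), which makes 6 members lower in that setting. Lrp4 had 155, 123 and 136 CPM in induced siZfp143 cells, against 144, 175 and 168 CPM in induced siControl cells. These ranges overlapped, with a log2 fold change of -0.23 and a 95% interval of -0.63 to 0.17 (edgeR adjusted p = 0.564). Musk had 31.7, 24.9 and 37.8 CPM in induced siZfp143 cells, against 36.3, 47.5 and 39.3 CPM in induced siControl cells. 1 knockdown library lay above the lowest control (log2 fold change -0.38, 95% interval -0.76 to -0.01, edgeR adjusted p = 0.233). Rapsn had 85.4, 70.5 and 65.5 CPM in induced siZfp143 cells, against 83.7, 79.8 and 66.4 CPM in induced siControl cells. The Rapsn ranges all but coincided, with a log2 fold change of -0.06 and an interval of -0.34 to 0.23 (edgeR adjusted p = 0.874). The kit was not strand-specific, and Rapsn overlaps Gm13778 on the opposite strand in the GENCODE annotation of GRCm38, so reads of the pair cannot be told apart.

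In uninduced cells, 24 hours after transfection, the direction was the other one for part of the set. With siZfp143, 3 of 9 tested members were higher than with siControl and none was lower, where 15.4% of all tested genes were higher, 17.1% were lower and 32.5% differed in either direction. A share of 3 in 9 is close to that background. The members' median log2 fold change was 0.16, against -0.04 over all genes. This comparison and the comparison of induced groups share no library, whereas each shares its libraries with the comparisons by induction.

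Chrnb1 changed most. It had 21.2, 20.0 and 18.4 CPM in uninduced siZfp143 cells, against 6.68, 9.0 and 7.69 CPM in uninduced siControl cells. Every knockdown library was above every control, at 2.55 times the control level (log2 fold change 1.35 ± 0.135, edgeR adjusted p = 4.88e-06), and the call held in all 21 alternative settings. Rapsn had 48.1, 39.5 and 46.0 CPM in uninduced siZfp143 cells, against 32.1, 29.9 and 31.0 CPM in uninduced siControl cells. Its ranges did not overlap either (log2 fold change 0.52 ± 0.135, edgeR adjusted p = 0.00855). Chrnd, at 47.4, 53.1 and 48.8 CPM in uninduced siZfp143 cells, against 41.4, 36.9 and 29.4 CPM in uninduced siControl cells, was higher by 0.47 ± 0.15 on the log2 scale (edgeR adjusted p = 0.0266). That call was lost in 5 of the 12 settings that left out 1 library, which were each uninduced siZfp143 library and uninduced siControl 2 and 3 (edgeR adjusted p between 0.0522 and 0.0844), and with library size alone as scaling (adjusted p = 0.0602). As TPM the Chrnd ranges overlapped, at 19.4 to 22.9 in uninduced siZfp143 cells and 9.37 to 21.3 in uninduced siControl cells. The lowest of these values was that of uninduced siControl 3.

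Chrna1 had 192, 199 and 194 CPM in uninduced siZfp143 cells, against 152, 173 and 204 CPM in uninduced siControl cells. The control libraries spread around the knockdown ones (log2 fold change 0.15, 95% interval -0.13 to 0.42, edgeR adjusted p = 0.41). Chrng, at 1.14, 0.472 and 0.396 CPM in uninduced siZfp143 cells, against 0.380, 0.274 and 0.460 CPM in uninduced siControl cells, and Dok7, at 0.285, 0.295 and 0.904 CPM in uninduced siZfp143 cells, against 0.272, 0.494 and 0.591 CPM in uninduced siControl cells, overlapped between the groups and missed the threshold. Their log2 fold changes were 0.86, with an interval of -0.13 to 1.84, and 0.16, with an interval of -0.96 to 1.27 (edgeR adjusted p = 0.159 and 0.85). Musk had 8.56, 11.6 and 10.7 CPM in uninduced siZfp143 cells, against 11.2, 11.9 and 8.54 CPM in uninduced siControl cells. These ranges were nearly the same, with a log2 fold change of -0.04 and an interval of -0.45 to 0.37.

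Agrn and Lrp4 leaned the other way in uninduced cells. Agrn had 33.0, 37.1 and 36.8 CPM in uninduced siZfp143 cells, against 64.8, 54.9 and 34.2 CPM in uninduced siControl cells, and Lrp4 had 9.99, 13.8 and 13.1 CPM in uninduced siZfp143 cells, against 21.3, 21.0 and 11.6 CPM in uninduced siControl cells. In both genes uninduced siControl 3, the library with the high mitochondrial share, sat among the knockdown libraries and the other controls sat above them. The log2 fold changes were -0.53 for Agrn and -0.55 for Lrp4, and neither passed the test (edgeR adjusted p = 0.0542 and 0.0529). Without uninduced siControl 3 they were -0.74 and -0.78, and both were called lower (edgeR adjusted p = 0.00113 and 0.00106). Without induced siZfp143 1 both were also called, at -0.53 and -0.55 (edgeR adjusted p = 0.0298 and 0.045). Without both libraries that stood apart, 4 members were higher, Chrna1 among them at 0.26 (edgeR adjusted p = 0.0304), and these 2 were lower.

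**Figure D2:**
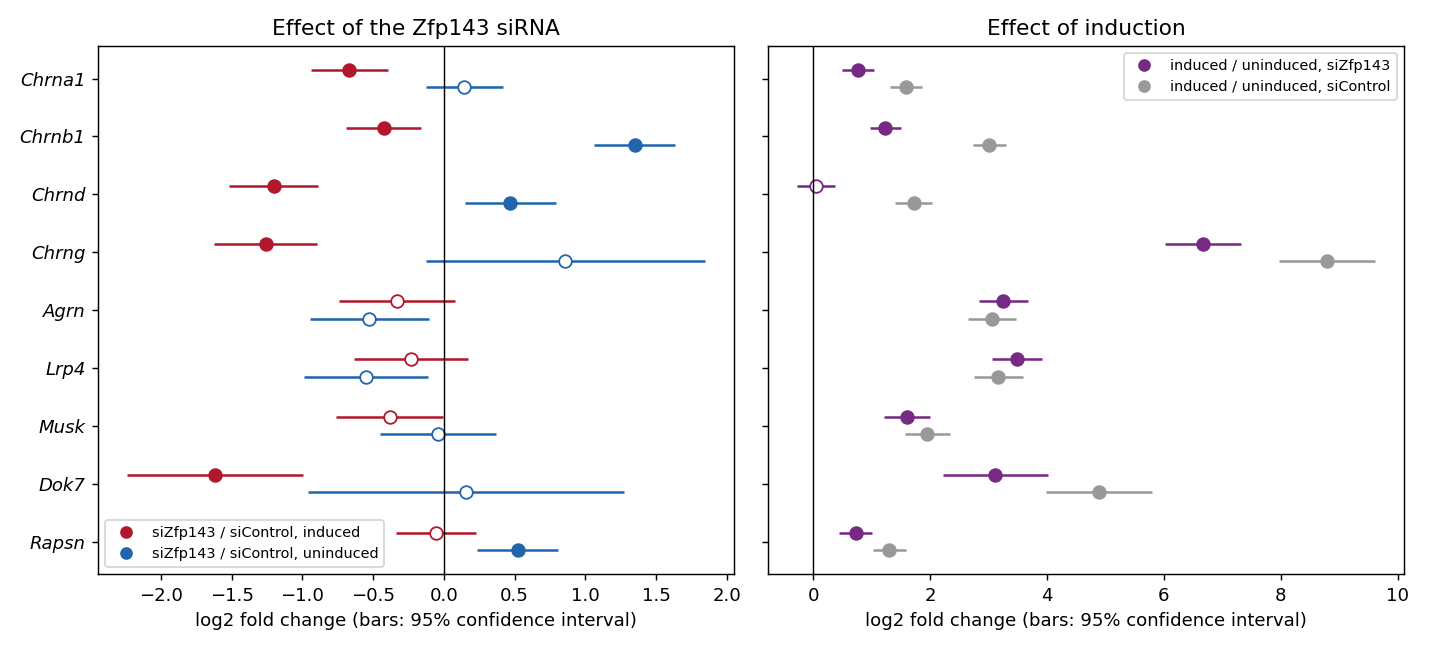
Fitted log2 fold change of each tested gene with its 95% interval, for siZfp143 against siControl in induced and uninduced cells and for induction with each siRNA, filled where the adjusted p was under 0.05. Chrna1, Chrnb1, Chrnd, Chrng and Dok7 lie below 0 with siZfp143 in induced cells, and Chrnb1 stands out above 0 in uninduced cells.

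Whether the effect of the siRNA differed between the states was tested directly, as the interaction of siRNA and induction. It was negative and past the threshold for 6 of the 9 tested members, against 11.8% of all tested genes with a negative, 10.6% with a positive and 22.5% with any such interaction. Chrnb1 changed sign between the states, with a knockdown effect of -0.43 in induced cells, against 1.35 in uninduced cells, a difference of -1.78 ± 0.182 on the log2 scale (edgeR adjusted p = 1.06e-05). The difference was -1.67 ± 0.211 for Chrnd (edgeR adjusted p = 6.6e-05), -2.12 ± 0.493 for Chrng (adjusted p = 0.00562) and -0.82 ± 0.181 for Chrna1 (adjusted p = 0.00501). These 4 calls held in all 20 alternative settings, with Chrng at -1.49 without uninduced siZfp143 1 (edgeR adjusted p = 0.0437). Rapsn, at -0.58 ± 0.189 (edgeR adjusted p = 0.0392), and Dok7, at -1.77 ± 0.6 (edgeR adjusted p = 0.0456), were past the threshold by little. The Rapsn call was lost in 7 of the 12 settings that left out 1 library (-0.55 to -0.50, edgeR adjusted p between 0.0888 and 0.108), namely induced siZfp143 2 or 3, induced siControl 1 or 2, uninduced siZfp143 1 or 3, or uninduced siControl 2. It was also lost with library size alone as scaling (adjusted p = 0.102) and with no filter on low counts (edgeR adjusted p = 0.0875). The Dok7 call was lost in 8, namely induced siZfp143 2 or 3, any induced siControl library, uninduced siZfp143 3, or uninduced siControl 1 or 2 (-1.86 to -1.01, edgeR adjusted p between 0.0615 and 0.314). Its interaction was -1.01 without uninduced siZfp143 3, the library with its highest uninduced level. Musk (-0.34), Lrp4 (0.32) and Agrn (0.19) missed the threshold, and Lrp4 passed it without uninduced siControl 3 (0.55, edgeR adjusted p = 0.0453).

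The fetal to adult subunit ratio was read from Chrng and Chrne. Chrne had 0 counts in each of the 3 induced siZfp143 libraries, 0, 7 and 3 counts in induced siControl libraries, and 0 in all 6 uninduced libraries. Chrng had 1213, 1220 and 1321 counts in induced siZfp143 cells, against 3079, 3568 and 2813 in induced siControl cells, and between 5 and 20 per library in uninduced cells of either siRNA. So the receptor transcripts of these myotube cultures were of the fetal type with either siRNA, and the adult subunit was at the edge of detection. Chrne also overlaps 4930544D05Rik on the opposite strand, and without strand the source of those 10 reads cannot be told apart.

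Per length, from counts summed over the induced siControl libraries and mean transcript lengths, Chrng was 532 times Chrne. The 95% interval of 289 to 1111 covers counting error only. Ratios in single libraries equal those of TPM, a level per transcript length that sums to the same total in each library. In induced siZfp143 cells no Chrne count was seen, and against a floor of 3 counts per library Chrng was at least 229.6, 229.9 and 242 times higher per length in the 3 libraries. In induced siControl 1, also without a Chrne count, it was at least 580.0 times higher, and in the other 2 libraries the ratio was 287 and 526. These bounds scale with the level of Chrng and do not order the true ratios. On the log2 scale of TPM + 0.1, the ratio was 8.998 ± 0.283 with siZfp143 and 8.80 ± 1.13 with siControl in induced cells (SD, n = 3 each), a difference of 0.20 (exact permutation p = 0.8, two-sided, smallest possible 0.1). With a pseudocount of 0.5 TPM the difference was -0.68, so its direction is set by the pseudocount. In siZfp143 cells, with Chrne at 0 throughout, the change of this ratio with induction restates that of Chrng. In siControl cells the 7 and 3 Chrne counts of 2 induced libraries enter it as well and lower it. Its size depends on the pseudocount with either siRNA. With induction the ratio was higher by 7.01 in siZfp143 cells and by 7.29 in siControl cells with 0.1 TPM. With 0.5 TPM it was higher by 5.99 and 6.91 in those cells, so these sizes do not compare the siRNAs. In uninduced cells it was higher by 0.48 with siZfp143 than with siControl (exact permutation p = 0.2), where Chrne was at 0 throughout. Tested with no filter on low counts, Chrne was higher in induced than in uninduced siControl cells (edgeR adjusted p = 0.0432), while siZfp143 against siControl in induced cells missed the threshold (edgeR adjusted p = 0.17).

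The make-up of the subunit transcripts differed between the groups as well. Summed over the 5 subunits, the level was 282 ± 41.2 TPM in induced siZfp143 cells, 459 ± 49.9 TPM in induced siControl cells, 90.1 ± 4.71 TPM in uninduced siZfp143 cells and 76.2 ± 14.4 TPM in uninduced siControl cells (SD, n = 3 each). Chrng made up 17.3% to 19.3% of that sum in induced siZfp143 cells and 24.3% to 25.5% in induced siControl cells. In uninduced cells it made up at most 0.623% with siZfp143 and 0.286% with siControl. Chrnd made up 11.3% to 12.3% in induced siZfp143 cells and 14.7% to 16.2% in induced siControl cells. Chrna1 and Chrnb1 took the larger shares that were left: Chrna1 made up 53.1% to 54.7% with siZfp143 and 46.7% to 48.5% with siControl in induced cells, and Chrnb1 15.3% to 16.3% with siZfp143 and 11.1% to 12.9% with siControl. These ranges did not overlap between the induced groups. The shares add up to a whole, so lower shares of Chrng and Chrnd leave larger ones for the others, and these are not separate observations. In uninduced cells Chrnb1 made up 12.8% to 14.6% with siZfp143 and 6.15% to 7.69% with siControl.

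The ratios between subunits, again of TPM, show the same shift. Chrna1 was 4.59 ± 0.24 times Chrnd in induced siZfp143 cells and 3.08 ± 0.173 times in induced siControl cells (SD, n = 3 each). Chrnd was 0.74 ± 0.0543 times Chrnb1 in induced siZfp143 cells, 1.27 ± 0.119 times in induced siControl cells, 1.71 ± 0.147 times in uninduced siZfp143 cells and 3.19 ± 0.977 times in uninduced siControl cells. Thus the delta transcript was less abundant than the beta transcript in induced knockdown cells and more abundant in the 3 other groups. Chrna1 was 4.63 ± 0.381 times Chrnb1 in uninduced siZfp143 cells, against 10.9 ± 1.72 times in uninduced siControl cells.

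**Figure D3:**
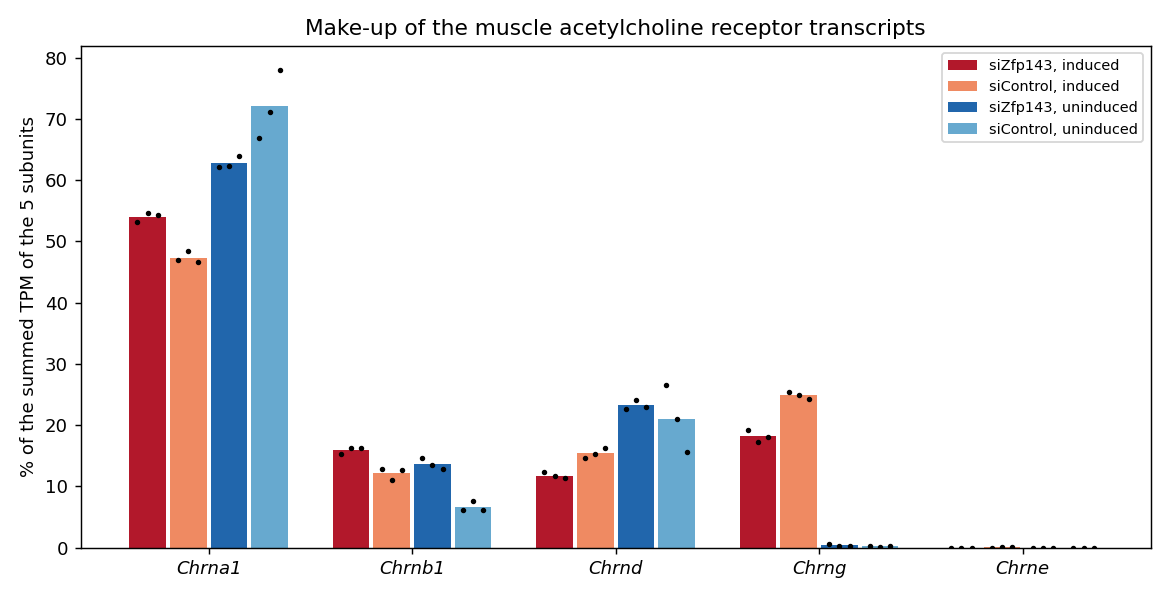
Share of each subunit in the summed TPM of the 5 receptor subunits, with bars for the means of 3 libraries and points for the libraries. Chrng takes 17.3% to 25.5% in induced cells and under 1% in uninduced cells, and Chrne is near 0 in all groups.

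Set in order of TPM within induced siControl cells, the clustering genes ran from Agrn (110.3 ± 6.35) and Rapsn (99.1 ± 4.95) through Lrp4 (33.8 ± 4.32) and Musk (21.8 ± 3.22) to Dok7 (10.2 ± 0.0911; SD, n = 3). In induced siZfp143 cells Rapsn (97.9 ± 9.92) and Agrn (91.2 ± 19.4) again led and were not apart beyond their spread, followed by Lrp4 (30.8 ± 4.6), Musk (18.2 ± 4.26) and Dok7 (3.28 ± 0.956). Uninduced cells had the anchor without much of the signal: Rapsn had 40.4 ± 1.74 TPM with siZfp143 and 29.3 ± 6.83 TPM with siControl, whereas Agrn, Lrp4, Musk and Dok7 had 6.46, 1.80, 3.83 and 0.276 TPM with siZfp143 and 10.1, 2.89, 4.31 and 0.261 TPM with siControl.

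Other genes of the same system were read as lists. Over all tested genes, 3.73% were higher and 5.77% lower with siZfp143 in induced cells, and 15.4% and 17.1% in uninduced cells. With induction 36% rose and 30.1% fell in siZfp143 cells, and 33.2% rose and 30.9% fell in siControl cells. The counts of the lists and markers below are to be read against these shares. Of 16 tested genes of the postsynaptic scaffold and basal lamina, 4 were lower and none higher with siZfp143 in induced cells, with a list median of -0.29. These were Colq, the collagen tail of acetylcholinesterase (0.797 ± 0.104 CPM with siZfp143 and 4.0 ± 0.33 CPM with siControl, log2 fold change -2.32), Scn4a, the muscle sodium channel (5.48 ± 0.647 CPM with siZfp143 and 25.3 ± 4.48 CPM with siControl, -2.21), the syntrophin gene Sntb1 (-0.97) and the intermediate filament gene Nes (-0.48). In uninduced cells 4 were higher and 8 lower, with a median of -0.40. Nid2, a basal lamina protein gene, was higher by 1.35, while Dtna, the alpha-dystrobrevin gene, and Sntb2 fell by 1.13 and 0.97 on the log2 scale. With induction 15 of 16 rose in siZfp143 cells and 12 of 16 in siControl cells, and none fell. Colq and Scn4a averaged under the filter level of 0.544 CPM in both uninduced groups, so their rise was built into their being tested. Nid2 rose by 5.59 in siZfp143 cells and by 6.85 in siControl cells, and Sntb1 by 4.05 in siZfp143 cells and by 4.32 in siControl cells.

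Of the 19 tested genes that act in the agrin signal beyond the members, 2 were lower with siZfp143 in induced cells and none higher, with a median of -0.02, against -0.03 over all genes. They were Fyn, a Src-family kinase (55.9 ± 3.63 CPM with siZfp143 and 116 ± 12 CPM with siControl, log2 fold change -1.06), and Camk2b (0.481 ± 0.104 CPM with siZfp143 and 1.68 ± 0.139 CPM with siControl, -1.80). Camk2b averaged under the filter level of 0.544 CPM in every group but induced siControl, so its lower call was partly built into its being tested. The Camk2b call was lost without induced siZfp143 2 or 3 or any induced siControl library, 5 of the 12 settings that left out 1 library (edgeR adjusted p up to 0.121). In uninduced cells 2 were higher, Cdk5r1 at 1.57 and Pak1 at 0.77, and 3 were lower, among them Fyn at -1.09. Neither count exceeds the share over all genes. With induction 6 rose and 6 fell in siZfp143 cells, and 8 rose and 8 fell in siControl cells, so the list as a whole did not follow the members. Pak1, a kinase downstream of MuSK, rose by 0.84 in siZfp143 cells and by 1.49 in siControl cells.

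Among 8 tested genes of neuregulin signalling and ETS factors, the neuregulin receptor gene Erbb3 alone was lower with siZfp143 in induced cells, with 21.1 ± 2.33 CPM, against 45.7 ± 6.73 CPM with siControl (log2 fold change -1.11, edgeR adjusted p = 0.00147), and the list median was 0.02. In uninduced cells the ETS genes Etv4 and Etv5 were higher, Etv4 with 34.7 ± 5.91 CPM, against 7.61 ± 1.52 CPM with siControl (log2 fold change 2.19, edgeR adjusted p = 1.59e-06), and Gabpb2 and Nrg1 were lower (-0.80 and -0.52). With induction Erbb3 rose by 6.16 in siZfp143 cells and by 6.61 in siControl cells, while Nrg1 fell by 0.88 in siZfp143 cells and by 1.72 in siControl cells. Erbb3 averaged under the filter level of 0.544 CPM in both uninduced groups, so its rise was built into its being tested. Without uninduced siZfp143 2 the Erbb3 value in siZfp143 cells was 6.89. None of the 8 assembly and glycosylation genes passed the test in induced cells, while 3 were lower with siZfp143 in uninduced cells: Gmppb (-0.83), Alg2 (-0.70) and Dpagt1 (-0.33). The Dpagt1 call was lost in 10 of the 12 settings that left out 1 library, all but those without induced siZfp143 1 or induced siControl 3 (-0.38 to -0.30, edgeR adjusted p up to 0.123), and with both other scalings, with no filter and in a fit of the uninduced groups alone. Of the 6 tested activity regulators, Myog, the myogenin gene, was lower with siZfp143 in both states, with 194 ± 41.5 CPM, against 351 ± 27.9 CPM with siControl in induced cells and 1.78 ± 0.146 CPM, against 3.24 ± 0.307 CPM in uninduced cells (log2 fold change -0.86 in each). Myf5 (-1.75) and Hdac4 (-0.92) were lower in uninduced cells. Of the 11 neuronal and other nicotinic subunit genes 1 was tested, Chrnb2, and it passed no test.

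**Figure D4:**
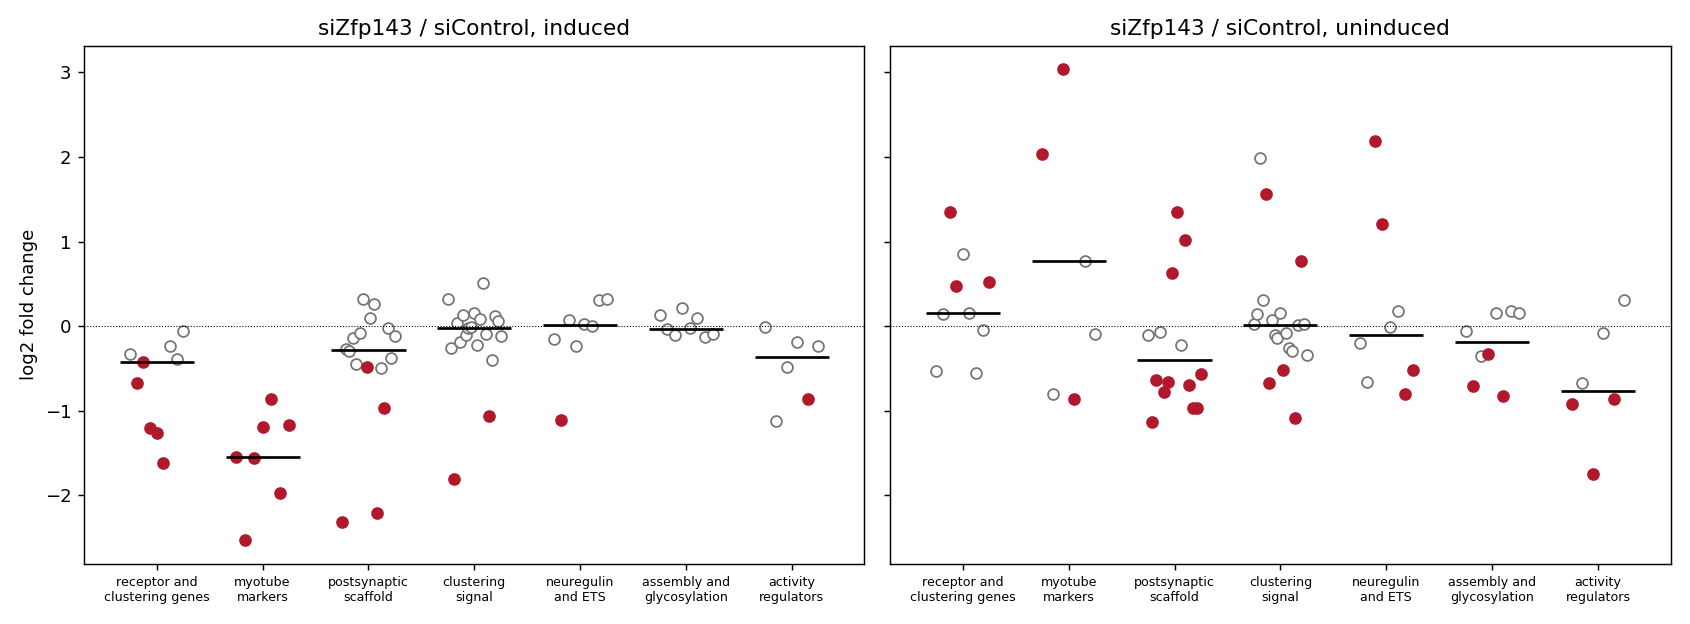
Fitted log2 fold changes of the genes of each list for siZfp143 against siControl, induced cells at left and uninduced cells at right, with filled points for adjusted p under 0.05 and lines for the median of all tested genes of a list. Genes without counts in a group of the comparison are left out as points. All tested genes of the receptor and myotube lists lie below 0 in induced cells (medians -0.43 and -1.55; Rapsn, at -0.06, is at 0.0377 with library size alone as scaling), and both lists have genes on either side of 0 in uninduced cells (medians 0.16 and 0.77).

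The labelled cell type was checked against markers. Desmin (Des) and the myogenic factor genes Myod1 and Myf5 were present in all groups, while the satellite cell gene Pax7 had at most 6 counts summed over a group. The 7 myotube markers summed to 4.05 to 5.55 CPM in uninduced siZfp143 cells and 4.72 to 5.49 CPM in uninduced siControl cells, where 2 of them were higher with siZfp143 (Mymk and Acta1) and 1 lower (Myog). Of 10 motor neuron markers, Chat, Isl1, Rbfox3, Slc5a7 and Snap25 had 0 counts in every group, and Stmn2 alone was tested. Stmn2, a stathmin gene, was higher with siZfp143 in both states, with 12.2 ± 0.979 CPM, against 7.81 ± 0.754 CPM with siControl in induced cells (log2 fold change 0.65, edgeR adjusted p = 0.0284), and 12.1 ± 0.416 CPM, against 8.64 ± 2.3 CPM with siControl in uninduced cells (0.49, edgeR adjusted p = 0.0434). The Schwann cell gene Sox10 had 1 count in all 12 libraries. Of the 4 tested fibroblast markers, Dcn and Lum were lower with siZfp143 in induced cells, and the list of 5 summed to 876 to 1049 CPM with siZfp143 and 1364 to 1523 CPM with siControl. In uninduced cells the list summed to 95.1 to 104 CPM with siZfp143 and 61.7 to 71.9 CPM with siControl. All 4 tested markers, Pdgfra, Col1a1, Dcn and Lum, rose with induction with either siRNA. Lum averaged under the filter level in both uninduced groups, so its rise was built into its being tested. The part of these fibroblast markers in the receptor result was not tested.

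The genes most like Chrng over the 12 libraries, by Pearson's r of log2 CPM, were Mymx, a gene of myoblast fusion (r = 0.998), Trp63 (0.997), Lmod2 (0.997), Enpp1 (0.996) and Tgtp1 (0.996). This describes libraries that fall into induced and uninduced ones, and 1003 of 12333 genes had r over 0.95. Among the members, Chrng was nearest to Agrn (0.970) and farthest from Chrnd (0.756). Chrne had too few counts for such a comparison.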

How the data were processed

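Per the submitters' processing notes, reads were trimmed with fastp 1.0.1, aligned with STAR 2.7.11b to GRCm39 and quantified with Salmon, for which neither the version nor the annotation release is stated there. The single deposited table gives, for each gene and library, an estimated count, a score column holding the TPM values the authors made from it, a transcript length, and FPKM, whose 12 columns were not used. TPM recomputed from the deposited counts and lengths differed by at most 0.1%. The columns of the 2nd and 3rd induced siZfp143 libraries spell their name with 2 letters swapped, and were matched on the rest of the name. Of 78810 lines, 535 exact repeats were dropped, which left 78275 gene IDs, 477 of them without a symbol.

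Estimated counts were rounded to whole numbers, since up to 7.26% of a library's values were not whole. Genes were kept by edgeR's filterByExpr (a CPM of 0.544 in 3 libraries, which is 10 counts in a library of median size, and 15 counts in all), which left 15030 genes. Counts were scaled by TMM, fitted with 1 mean per group over all 12 libraries, and tested with the robust quasi-likelihood test of edgeR 4.0.16 in R 4.3.3, with Benjamini-Hochberg adjustment over all tested genes and a threshold of 0.05. The test was also run on simulated counts, with the same variability setting for every gene and changes in a single group. That setting is simpler than these data, so it does not vouch for the calls here. Values after ± are standard errors beside log2 fold changes and SDs over 3 libraries beside levels. The Chrng to Chrne ratio used TPM with a pseudocount of 0.1 and an exact permutation test. Alternatives were other scalings, transcript length offsets, no filter, DESeq2 1.42.0, limma-voom 3.58.1, a replicate block and left-out libraries.

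The members, the gene lists and the markers were chosen with earlier results of these data known. Named beside the members are, per list and comparison, at most the 3 genes of smallest p past the threshold that reach a mean of 1 CPM in either group, and the genes most like Chrng. Nes and Nrg1 fall outside that rule and were named after their values were seen, to complete short counts.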

Additional observations from a re-analysis of the deposited data

Results flagged for a closer look

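The effect of the Zfp143 siRNA differed between induced and uninduced cells, by the edgeR test of the interaction, for 6 members and for Zfp143 itself. As the effect in induced cells minus that in uninduced cells on the log2 scale, the difference was -0.82 for Chrna1, -1.78 for Chrnb1, -1.67 for Chrnd, -2.12 for Chrng, -0.58 for Rapsn and -1.77 for Dok7. For Zfp143 it was 1.22, with the knockdown smaller in induced cells. For Chrng and Dok7 the uninduced side rests on levels of at most 1.14 and 0.904 CPM. No cause of these differences was tested.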

How the results depend on the processing

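The lower calls of Chrna1, Chrnd, Chrng and Dok7 in induced knockdown cells, and the rise of 9 and 8 members with induction, held in all 21 alternatives. For siZfp143 against siControl in uninduced cells, 3 members were called, against 5 with no filter, 5 with DESeq2, 6 without both libraries that stood apart, and 2 to 5 with 1 library left out. Over all genes, calls between induced groups numbered 1427, against 2525 without both such libraries and 901 to 2014 with 1 left out, and interaction calls 3375, against 5755 without both. The Chrng to Chrne log2 difference between induced groups reversed to -0.0641 as a CPM ratio, to -0.68 with a pseudocount of 0.5 TPM and lay within -0.27 to 0.83 with 1 library left out. Values that missed the threshold also changed sign. Rapsn in induced cells was 0.0377 with library size alone, and with 1 library left out -0.17 to 0.0244. Chrnd with induction in siZfp143 cells was -0.0731 without both libraries, and -0.0733 to 0.11 with 1 left out. With 1 library left out, the uninduced knockdown values were -0.16 to 0.0726 for Musk and -0.61 to 0.43 for Dok7, and the Agrn interaction was -0.0109 to 0.41. Same-numbered libraries deviated from their group means with correlations of -0.0963 to 0.306 and others with -0.279 to 0.249, so the numbers were not taken to pair the libraries, and the replicate block moved the Dok7 interaction to -1.79 (edgeR adjusted p = 0.0532), as did limma-voom to -1.71 (adjusted p = 0.0677). The cause of these changes was not tested.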
